A study of Glycine max with 16 samples.

Results

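A group of 80 probe sets on a soybean leaf microarray shared a profile in which the signal was higher at the photosynthetic temperature optimum than at the growth temperature and then stayed level while photosynthesis became inhibited by further warming. A probe set is a group of short oligonucleotides that together report 1 transcript. The members were chosen by their own state means of log2 signal among the 58989 non-control probe sets for which the array's annotation lists no gene or a single LOC number, of 61170 probe sets in all. A member had to stand at least 1.5 higher at the optimum than at baseline, to lie within 0.5 of the optimum in both inhibited states, and to reach a highest state mean of at least 8, which is a signal of 256. Each log2 unit is a 2-fold change. Because these means chose the members, the differences between states below describe the group and are not tests of it.

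The leaves came from Glycine max cultivar Williams 82, and all 16 arrays share that line, the tissue (the first fully expanded leaf) and the growth chamber. Plants grew at 22 °C with a photoperiod of 10 h, a light intensity of 350 µmol per square metre per second and 60% relative humidity, and 4 arrays were made for each of 4 states set by gas exchange. Baseline is the growth temperature, optimum the temperature of highest photosynthesis, and 20% and 30% inhibition are the states in which photosynthesis had dropped by that share of its optimum. Warming went in steps of 2 °C every 10 min on a scale from 22 to 42 °C, a leaf was taken after 20 to 30 min at the wanted state, and a whole curve took 3 to 4 h, so temperature, time since the start and time of day cannot be told apart. The sources used here give neither the leaf temperature reached in each state nor the age of the plants. The labels speak of 4 randomly collected plants and leave unsaid whether a plant was sampled in more than 1 state, so the errors below measure the spread between these arrays, which may be partly technical.

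Leaves that warm within minutes to hours switch on a heat response well before photosynthesis is harmed. Heat shock transcription factors, which wait in an inactive form in cool cells, are released as proteins begin to unfold and bind the promoters of chaperone genes. Other transcripts that change in the same window belong to protein folding in the endoplasmic reticulum, to water transport and to abscisic acid and dehydration signalling.

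The annotation says little about what the members encode. It lists no gene for 59 of the 80 and a LOC number, a placeholder for a gene without a product symbol, for 21, which fall on 15 genes. All 15 were found in the RefSeq gene table of assembly Glycine_max_v4.0 and all are protein coding, but only 3 carry another name there. By the stem of their IDs the 80 members fall into 67 groups, and as 21 of them fall on 15 genes, they are not 80 independent genes. A shared stem need not mean related transcripts. GmaAffx.1301, the stem of GmaAffx.1301.44.S1_at and GmaAffx.1301.48.S1_at, also holds probe sets of the leaf genes RCA11 and CAB3. Of the members, 8 end in _s_at and 4 in _x_at, endings that mark probe sets able to bind several transcripts (10% and 5% of members, against 8.28% and 1.87% of the 35547 soybean probe sets with the same lack of a gene name). The rule was met by 0 of the 23350 PsAffx and HgAffx probe sets, which are assumed here not to target soybean. These probe sets also set the background level defined below, which ran from 74.54 to 162.6 over the arrays. That is under the signal of 256 that the rule asks for. The level limit alone could keep most of them out, so this count is no test of the members.

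Across the 80 members the optimum lay 1.51 to 4.22 above baseline on the log2 scale, with a median of 1.74, against a median of 0 over all 30517 probe sets tested for the same difference. A difference of at least 2 was reached by 17 members, and the other 63 lay between 1.5 and 2. Measured against the optimum, 20% inhibition differed by -0.47 to 0.50 (median 0.04) and 30% inhibition by -0.50 to 0.47 (median 0.11). Both inhibited states stood above the optimum in 39 members and below it in 21, and in 20 they fell on opposite sides. Between the inhibited states, where the rule sets only a loose bound, 30% minus 20% inhibition ran from -0.67 to 0.48 with a median of 0.03.

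**Figure D1:**
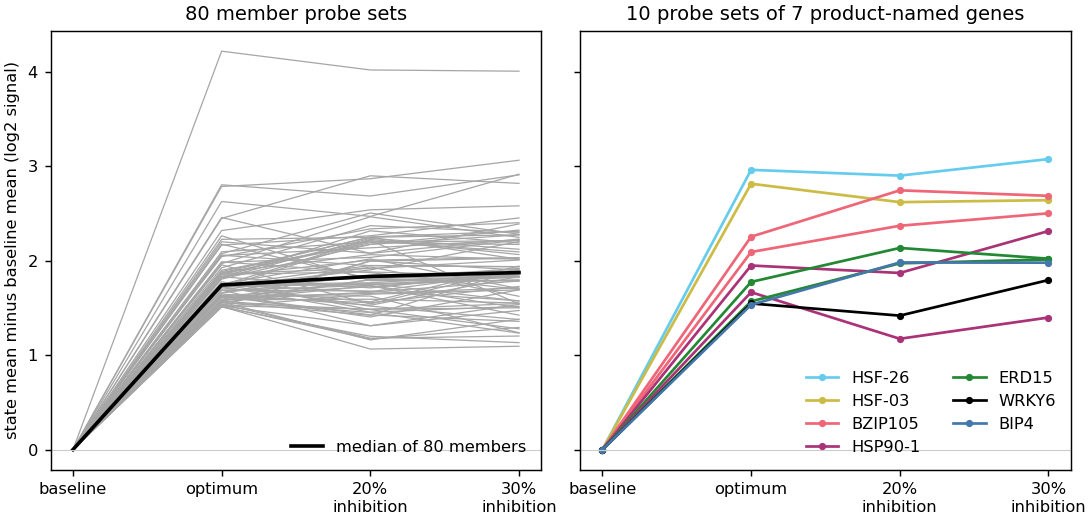
State means of log2 signal minus the baseline mean, over the 4 states in order of warming. At left each grey line is 1 of the 80 members and the black line their median, which stands at 1.74 at the optimum; at right are the 10 probe sets of 7 genes with a product name that met the same limits, coloured by gene. All lines leave 0 at baseline, reach their level at the optimum and stay near it.

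The step was visible in each array. The median member lay at -1.17, -1.70, -1.45 and -1.07 on baseline replicates 1 to 4, as log2 signal minus its own mean over the 16 arrays. At the optimum the same median stood at 0.26, 0.39, 0.55 and 0.55, at 20% inhibition at 0.67, 0.36, 0.44 and 0.56, and at 30% inhibition at 0.62, 0.41, 0.50 and 0.54. The 4 baseline arrays were therefore apart from the 12 warmer arrays, which overlapped among themselves. All 4 optimum values were higher than all 4 baseline values in 75 of the 80 members, against 9.16% of all probe sets tested, and the rule itself used that contrast. The same held at 20% inhibition for 66 members (15.6% of all) and at 30% inhibition for 72 (16.6% of all).

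In the limma fit across the whole array, 75 members were higher at the optimum at an adjusted p under 0.05, where 6.63% of all probe sets were. None of the 80 was called between 20% inhibition and the optimum, a comparison that called 16.6% of all probe sets, or between 30% inhibition and the optimum, which called 14% of all. At an unadjusted p under 0.05 these 2 comparisons held 5 and 1 members. Since the rule capped both differences, these counts say nothing more about the members.

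**Figure D2:**
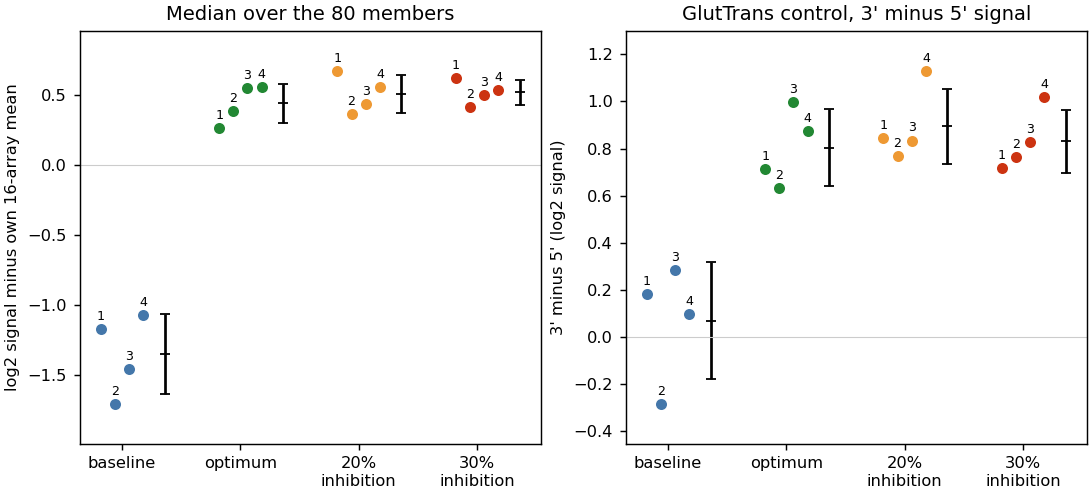
Left, for each array, the median over the 80 members of log2 signal minus the member's own 16-array mean; right, the GlutTrans control's 3′ signal less its 5′ signal, in log2 units. Points are arrays labelled with their replicate number, and the bar beside each state is mean ± SD (n = 4). In both panels the 4 baseline arrays lie below the 12 warmer ones, which overlap. The other control pairs, not drawn, did not all share this course, and that of P450 went the other way. Whether the control's course has a part in that of the members was not tested.

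Within states the members did not all lean the same way. Baseline replicate 2 gave the lowest of the 4 baseline values for 40 members and baseline replicate 4 the highest for 37. Optimum replicate 1 was the lowest optimum array for 37 members. In the inhibited states replicate 1 stood out at the other end, as the highest array for 31 members at 20% inhibition and 34 at 30% inhibition. Taken in the order of warming, the members' median within-state SD on the log2 scale was 0.45, 0.32, 0.37 and 0.32, against 0.25, 0.25, 0.30 and 0.26 over all probe sets tested.

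Some array quality measures differed between the states too. For the control named GlutTrans, the gap in log2 signal between its 3′ and 5′ probe sets, a measure of how complete the labelled copies are, came to 0.068 ± 0.247 in the baseline arrays and 0.804 ± 0.163 in the optimum arrays (SD, n = 4). It was then 0.895 ± 0.160 and 0.831 ± 0.134 with 20% and 30% inhibition, the same shape as the members. The 6 other such control pairs did not share 1 course. That of actin r2 went from 1.084 ± 0.058 to 1.178 ± 0.149, 1.397 ± 0.074 and 1.367 ± 0.073, while that of GAPDH, read from its 3′ and middle probe sets, differed by -0.02 between optimum and baseline. That of P450 went the other way, from 1.121 ± 0.282 to 0.737 ± 0.258, 0.560 ± 0.143 and 0.764 ± 0.148 (SD, n = 4). The pairs of actin, ubiquitin and SucBP were higher at the optimum by 0.29, 0.45 and 0.95 and then lay at -1.14, -0.14 and -0.98 from it at 20% inhibition and at -0.42, -1.11 and -1.78 at 30% inhibition. The background level, the 95th percentile of the PsAffx and HgAffx signals of an array, was 81.8 ± 7.0, 86.2 ± 11.9, 125 ± 28.1 and 112 ± 30.8 in the states in order (SD, n = 4). The part of these in the members' profile was not tested. At baseline 18 members lay below background on at least 1 array and 1 member on all 4. Of the leaf markers, 13 of 16 probe sets of the Rubisco activase, CAB3 and PSAD genes were above background on all 16 arrays. That held for 8 of 46 seed probe sets and 2 of 4 nodule probe sets. Median baseline signals were 20260 for leaf, 31.9 for seed and 123 for nodule. The lists overlapped, as seed probe sets of PM37, PM23, KTI-3 and KTI-2 read up to 13290 and leaf probe sets down to 6.91.

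Among the members with a LOC number, the gene LOC547851 was the best covered. It has 6 member probe sets, 5 of them with the ID stem Gma.6427, and because several end in _x_at, _a_at or _s_at they may read the same or closely related transcripts. On Gma.6427.1.S1_x_at the baseline signals were 1364, 995.4, 920.8 and 2047, and the optimum signals 5053, 4410, 5103 and 4087. At 20% inhibition it read 4780, 5489, 5267 and 5680, and at 30% inhibition 5874, 4901, 5658 and 4207. Every warm array was above the highest baseline array, replicate 4, and the 3 warm states overlapped. The optimum was higher than baseline by 1.88 ± 0.19 on the log2 scale (SE of the limma fit), and by 1.87 ± 0.18, 1.84 ± 0.16, 1.73 ± 0.16, 1.612 ± 0.155 and 1.555 ± 0.142 on the other 5 members of this gene. Gma.6427.3.S1_a_at went on to 9164 ± 542 at 20% and 9550 ± 469 at 30% inhibition from 7122 ± 1434 at the optimum (SD, n = 4), close to the limit of the rule. A further probe set of the gene, Gma.6427.3.S1_at, was below background on all 4 baseline arrays and again on all 4 arrays at 20% inhibition, and so gives no usable profile.

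The tightest member was Gma.1463.1.S1_at of LOC100810629. Its signals were 1180, 911.4, 1198 and 1239 at baseline, and 3570, 3630, 4115 and 3767 at the optimum. They were 4177, 3790, 3410 and 3804 at 20% inhibition, and 4197, 3671, 3724 and 4431 at 30% inhibition. No warm value came near the baseline values, and the ranges of the 3 warm states overlapped. The optimum stood 1.74 ± 0.11 (SE) above baseline, and the difference of 30% inhibition from the optimum was 0.09 with a 95% interval from -0.15 to 0.32. For 20% inhibition that interval ran from -0.23 to 0.24.

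The largest difference among the LOC members was that of GmaAffx.66492.1.A1_at, for LOC100527822, at 2.06 ± 0.18 (SE). It read 288.7, 254.9, 318.1 and 352.3 at baseline and 948.7, 1402, 1301 and 1436 at the optimum. At 20% inhibition the signals were 1218, 871.8, 1122 and 1535, and at 30% inhibition 1233, 1070, 945.5 and 1417. The lowest warm value, 871.8, was well above the highest baseline value, while no warm state stood apart from the others.

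LOC100306607 showed how 2 probe sets of a gene can differ. Its member, Gma.8106.1.S1_at, went from 251 ± 56.7 at baseline to 902 ± 150 at the optimum and was at 937 ± 290 and 882 ± 90.6 in the inhibited states (SD, n = 4). Gma.6894.1.S1_at, which the annotation pairs with the same gene, was brighter and showed no such step, at 8068 ± 1284 at baseline, 7278 ± 1536 at the optimum and 5455 ± 1135 and 5029 ± 559 in the inhibited states (SD, n = 4), a log2 difference of -0.16 at the optimum. Which of them reports the gene is not settled by the files.

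For LOC547877 the array-to-array spread was large. The member, Gma.197.1.S1_at, read 7943, 1975, 3913 and 10670 at baseline, and 21170, 30170, 8208 and 18690 at the optimum. It read 24990, 21980, 28990 and 17080 at 20% inhibition and 23060, 26240, 24630 and 24090 at 30% inhibition. Optimum replicate 3 fell inside the baseline range, which makes this 1 of the 5 members whose baseline and optimum values overlapped. The other probe set of the gene, Gma.12045.1.S1_at, was higher at the optimum by 1.23 and then higher again by 1.15 at 20% and 1.19 at 30% inhibition, so it did not level off.

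The 3 genes with another name in RefSeq were LOC100306092, LOC100500640 and LOC547562. LOC100306092 is also named TIP2-3, a tonoplast intrinsic protein, the water channel family of the vacuole membrane. Its member Gma.11324.1.A1_s_at read 895.1, 244.2, 780.4 and 361.6 at baseline, 1247, 1469, 2305 and 1810 at the optimum, 2265, 771.1, 1112 and 4046 at 20% inhibition and 2374, 1347, 2162 and 1309 at 30% inhibition. Baseline and optimum did not overlap, but at 20% inhibition replicate 2 fell below the highest baseline array. The difference at the optimum was 1.74 ± 0.46 (SE). A second probe set of TIP2-3, Gma.11324.2.S1_a_at, was higher by 1.76 at the optimum and missed the rule only because it stood 0.51 lower at 20% inhibition (a log2 difference of -0.51).

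LOC100500640 is also named GmC/VIF2, and in Arabidopsis the C/VIF proteins inhibit the enzymes that split sucrose in the cell wall or the vacuole. GmaAffx.45127.1.S1_at read 743.1, 417.6, 520 and 650.4 at baseline and 1377, 2012, 1534 and 1900 at the optimum. At 20% inhibition it read 2691, 1822, 3100 and 1747, and at 30% inhibition 1781, 2627, 2026 and 3058. All warm values were above all baseline values, and 2 arrays at 20% inhibition and 3 at 30% inhibition were above the highest optimum array. Its differences from the optimum, 0.43 and 0.46, lay just inside the limit, and it met the rule in only 9 of 16 repeats that each left out 1 array.

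LOC547562, also named KNBS1, had the smallest difference of all members, 1.51 ± 0.33 (SE) on Gma.8479.1.S1_at, from 100 ± 37.3 at baseline to 271 ± 35.6 at the optimum (SD, n = 4). Baseline replicate 2, at 53.6, was below background, and with that signal raised to background the difference was 1.36, short of the 1.5 limit. At 20% inhibition replicate 4 read 113.8, below the highest baseline value of 142.4. The KNBS1 probe set GmaAffx.37095.1.S1_at, not a member, was higher by 1.47, just short of the limit, and lay at -0.02 and 0.26 from the optimum in the inhibited states. Probe sets GmaAffx.37095.3.S1_at and GmaAffx.37095.2.S1_s_at share its ID stem, have no gene listed, and are members with differences of 1.83 and 1.63. Other probe sets of KNBS1 differed. Gma.18007.1.S1_at was higher by 1.76 and then lay at 0.07 and 0.62 from the optimum, where Gma.8479.1.S1_at lay at -0.31 and -0.38. Gma.8292.1.S1_at was higher by 1.05, with overlapping baseline and optimum values. Gma.8479.1.A1_at and GmaAffx.91436.1.S1_at were below background on all 4 baseline and all 4 optimum arrays.

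LOC100778240 has 2 member probe sets of 1 ID stem, and the single member of LOC100810794 shares its stem with 2 members that have no gene listed. GmaAffx.49045.3.S1_at of LOC100810794 went from 1363 ± 298 at baseline to 5204 ± 1238 at the optimum, then 6987 ± 1036 and 6711 ± 1548 (SD, n = 4). GmaAffx.49045.1.S1_at and GmaAffx.49045.2.S1_at, the members without a gene, stood higher at the optimum by 1.97 and 1.82 and lay 0.50 and 0.49 above the optimum at 20% inhibition, just inside the limit. On all 3 of them the highest 30% inhibition value was replicate 4. GmaAffx.90646.1.A1_s_at of LOC100810794, not a member, was higher by 1.47 and then lay 0.61 and 0.43 above the optimum. Its 20% inhibition arrays (5404 to 7509) were all above its optimum arrays (3455 to 4960). GmaAffx.90646.1.S1_at, below background on 2 baseline arrays, was higher by 1.08 and then lay at 0.29 and -0.14. For LOC100778240, Gma.3594.1.S1_at was at 531 ± 157 at baseline and 2080 ± 530 at the optimum, and Gma.3594.2.S1_a_at at 1160 ± 368 and 3688 ± 374 (SD, n = 4). At 30% inhibition the former lay 0.24 above the optimum and the latter 0.21 below it (a difference of -0.21), both within their array spread. A further probe set of this gene, GmaAffx.61872.1.S1_at, was below background on every baseline and optimum array and above it on all 8 inhibited arrays.

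The remaining LOC members gave the same step with varied spread. GmaAffx.25785.1.A1_at of LOC100305643 stood at 984 ± 241 at baseline and 3223 ± 685 at the optimum, GmaAffx.11204.2.S1_at of LOC100787866 at 303.2 ± 124.5 and 923 ± 160, and Gma.11990.1.A1_at of LOC100811369 at 857 ± 222 and 2449 ± 566 (SD, n = 4). GmaAffx.90045.1.S1_at of LOC100785506 was the member closest to the lower limit at 30% inhibition, at -0.50 from the optimum, and its optimum arrays spread from 472.3 to 1896. Of the 2 brighter probe sets of this gene that are not members, Gma.12012.1.S1_s_at was higher by 1.83 at the optimum and then lay at -0.57 and -0.73 from it, and GmaAffx.90376.1.A1_at was higher by 1.55 and then lay at -0.87 and -0.84.

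LOC100527368 was the least even of the LOC members. GmaAffx.74679.1.S1_at read 860.1, 166.6, 943.7 and 513.6 at baseline, 1490, 966.8, 1973 and 1752 at the optimum, 1682, 579.8, 566.2 and 3316 at 20% inhibition and 2065, 724, 1655 and 789.3 at 30% inhibition. Baseline replicate 2 was far below the other baseline arrays, and both inhibited states reached into the baseline range. Its difference at the optimum, 1.54 ± 0.58 (SE), became 1.00 without baseline replicate 2, and it was 1 of the 5 members that the fit did not call.

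Over the 15 LOC genes, 18 further probe sets were not members. Of these, 10 were above background on all 16 arrays, and their optimum minus baseline ran from -0.16 to 1.83 with a median of 1.45. At least 1 was reached by 8 of the 10, and 1 was lower at the optimum. Of those 8, only Gma.3594.2.S1_at, Gma.8292.1.S1_at and GmaAffx.37095.1.S1_at then lay within 0.5 of the optimum in both inhibited states.

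**Figure D3:**
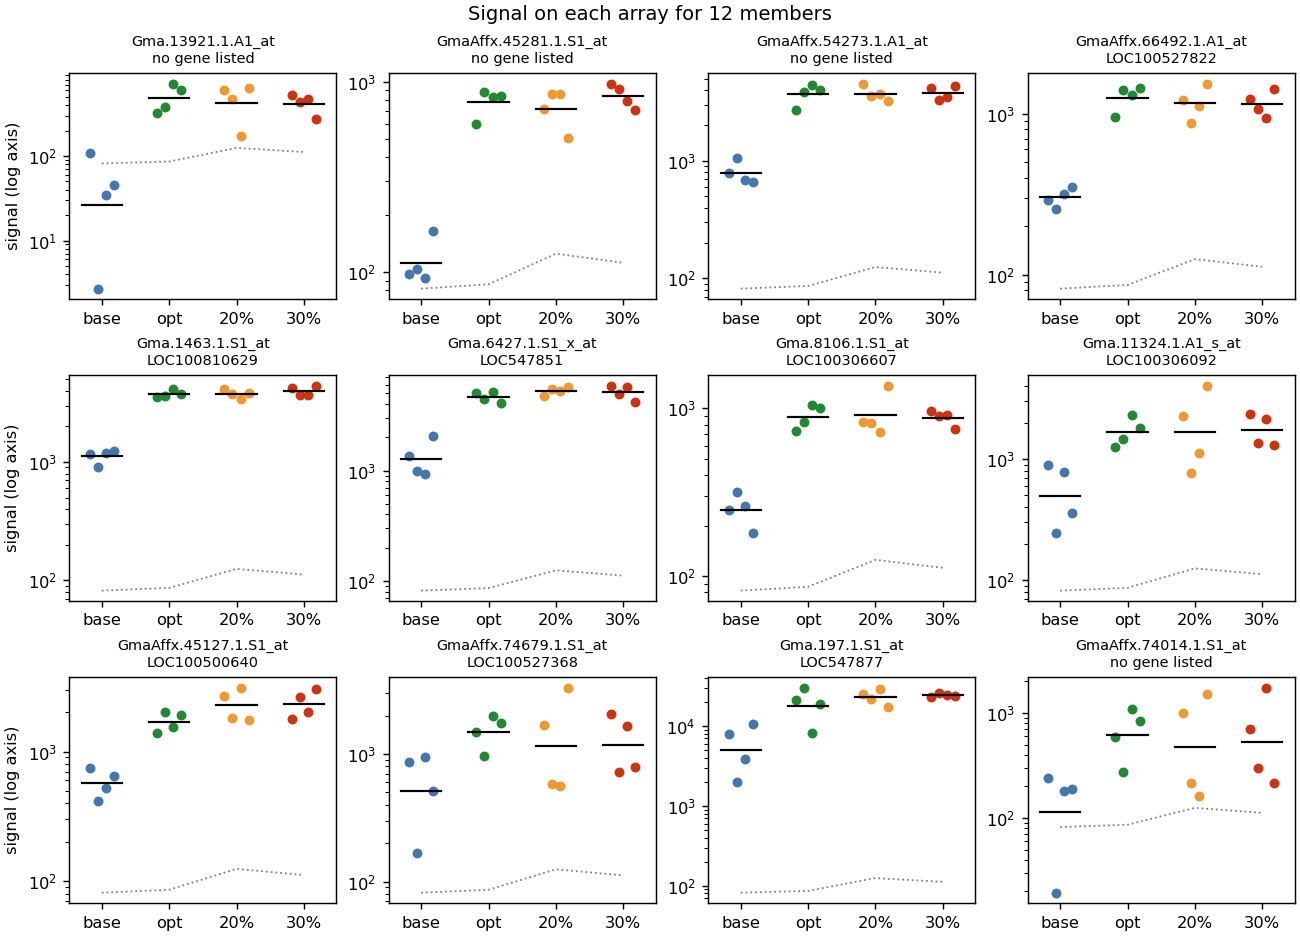
MAS5 signal of 12 members on each array, on log axes, with states from left to right (base, opt, 20% and 30%). Points are the 4 arrays of a state in the order of their replicate numbers, black lines are geometric means, and the dotted line is the mean background level of the state. LOC100810629 and LOC100527822 show a clean step, while GmaAffx.74014.1.S1_at and LOC100527368 scatter widely in each state.

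On the signals as deposited, the largest difference of all 80 members was that of a probe set with no gene listed, Gma.13921.1.A1_at, at 4.22 ± 0.78 (SE). Its baseline signals were 108, 2.701, 34.19 and 45.82, and 3 of these lay below background. The optimum read 325.8, 385.5, 718.2 and 611.9, 20% inhibition 604, 469.2, 173.7 and 645.8, and 30% inhibition 529.6, 439.3, 474.7 and 277.6. No warm value overlapped with baseline, but the size of the difference rests on signals that the array barely measures, and it was 2.51 once each dim signal was raised to its array's background, which places it below GmaAffx.45281.1.S1_at at 2.81.

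GmaAffx.45281.1.S1_at, at 2.81 ± 0.21 (SE), was above background on every array and had the largest difference of the members with that floor. It read 97.77, 103.9, 92.49 and 165 at baseline, 601.1, 880, 831.7 and 841.1 at the optimum, 714.9, 863.4, 856 and 503.7 at 20% inhibition and 974.1, 909.1, 792.6 and 705.5 at 30% inhibition. The groups were fully apart from baseline, and the rule held without any single array.

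GmaAffx.68866.2.S1_at was below background on all 4 baseline arrays, at 55.99, 8.366, 48.47 and 67.53. Its optimum signals were 217.9, 193.9, 222.8 and 237.8, at least 2.67-fold higher than the background bound, and it was at least 3.26-fold higher at 30% inhibition. At 20% inhibition the fold was 2.39, which is not a lower bound, because replicate 3 dropped to 89.28, below that array's background. These folds set the baseline at the higher of the array's background and the signal.

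Other unnamed members lay well clear of background. GmaAffx.54273.1.A1_at went from 797 ± 180 at baseline to 3729 ± 742, 3754 ± 546 and 3818 ± 511 (SD, n = 4), a difference of 2.23 ± 0.17 (SE) at the optimum, and was the most level of the strong members, with 95% intervals from the optimum of -0.34 to 0.39 and -0.32 to 0.41. Gma.14164.1.A1_at went from 604 ± 221 to 3492 ± 1736 and then 4378 ± 1063 and 4069 ± 484, with optimum replicates 1 and 2 at 1548 and 2548 and replicates 3 and 4 at 5259 and 4611. Gma.11529.1.S1_at went from 178 ± 66.9 to 861.5 ± 158.8, 1009 ± 232 and 1021 ± 87.7. In each of the 3 every warm array was higher than every baseline array.

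Further members without a gene were uneven between arrays or dim at baseline. GmaAffx.74014.1.S1_at read 242.7, 19.37, 182.1 and 189.2 at baseline and 586.3, 274.8, 1092 and 841.6 at the optimum. Its values at 20% inhibition were 1001, 214.4, 160.2 and 1504, and at 30% inhibition 708.8, 297.6, 1743 and 213.3, so the inhibited states overlapped with baseline. The difference at the optimum was 2.46 ± 0.87 (SE) and became 1.61 without baseline replicate 2. Gma.6772.1.S1_at, with baseline signals of 214.3, 92, 111.8 and 762.5 and optimum signals between 880.2 and 1077, was higher by 2.27 ± 0.53 (SE), with baseline replicate 4 not far below the optimum and inside the range of both inhibited states. GmaAffx.53960.1.S1_at and GmaAffx.40337.1.S1_at, below background on 3 and 2 baseline arrays, were higher at the optimum by 2.79 ± 0.57 and 2.20 ± 0.34 (SE). With their dim signals raised to background these differences were 1.43 and 2.04, and the former is then short of the 1.5 limit.

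Some ID stems held several members, each with the step that the rule required. Of the 9 such stems, with 22 members, Gma.6333 held a bright and a dim probe set, chosen for mention after their values were seen. Gma.6333.2.S1_s_at went from 5246 ± 1462 to 18770 ± 2922 at the optimum and Gma.6333.2.S1_at from 214.7 ± 62.8 to 960 ± 268 (SD, n = 4), with differences of 1.86 and 2.17. Gma.6333.1.A1_at and Gma.6333.3.S1_at, of the same stem and not members, had differences of -0.23 and -0.28. GmaAffx.60112.1.S1_at and GmaAffx.60112.1.S1_s_at were higher by 1.63 and 1.74 and lay at -0.39 and -0.37 from the optimum at 30% inhibition. Over the stems of at most 20 probe sets, 30 further probe sets were not members, 14 of them above background on all 16 arrays, and 7 of the 14 were higher at the optimum by at least 1 while 3 were lower. Probe sets with related IDs thus did not always share the profile.

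The other 45 members, which are described by their ranges, were higher at the optimum by 1.52 to 2.18 with a median of 1.73. For 10 of them a baseline array lay below background. Over the 80, mean baseline signals ran from 45.1 to 6126 with a median of 415, and mean optimum signals from 195 to 19560 with a median of 1279.

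The limits of the rule cut through a continuous spread. The smallest differences inside were 1.51 for Gma.8479.1.S1_at and 1.51 for GmaAffx.5992.1.A1_at, and the closest outside 1.4993 for GmaAffx.9089.1.S1_at and 1.49 for Gma.5690.1.S1_at. At 20% inhibition GmaAffx.49045.1.S1_at and GmaAffx.70842.1.S1_at were inside at 0.4957 each, and Gma.4084.1.S1_at was outside at 0.52. At 30% inhibition Gma.6772.1.S1_at was inside at -0.47, and Gma.13350.1.S1_x_at and Gma.9508.3.S1_s_at were outside at 0.52 and -0.52. On the level limit GmaAffx.70842.1.S1_at and GmaAffx.8120.1.S1_at were inside at 8.05, and Gma.8159.1.S1_at and GmaAffx.60084.1.S1_at outside at 7.9955 and 7.88. A rise of 1.4 to 1.5 with all other limits met was found for 20 probe sets outside, beside 18 members between 1.5 and 1.6.

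How flat the plateau is was limited by the spread between arrays. The median reach to either side of the 95% interval for 30% inhibition minus optimum was 0.53, wider than the limit itself. Both intervals from the optimum lay within 0.5 for 7 members and within 1 for 53. The 7 were GmaAffx.54273.1.A1_at, Gma.8106.1.S1_at, Gma.1463.1.S1_at, GmaAffx.84296.1.S1_at and 3 probe sets of LOC547851. For the other members a difference larger than the limit is inside the interval. The rule capped these same differences, so the intervals describe the spread between arrays and do not test how flat the members are.

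Membership itself moved with single arrays. Of the 80 members, 27 met the rule in all 16 repeats that each left out 1 array, 16 in 15 of them and 37 in fewer, down to 6 for GmaAffx.16034.1.S1_at, whose baseline signals were 638.3, 1129, 3488 and 678.4. Without baseline replicate 2, 59 of the 80 still met it and 76 probe sets did in all, and without optimum replicate 4, 60 of 80 did, among 68 in all. The 8 LOC members that met the rule in every repeat were Gma.3594.1.S1_at, Gma.8106.1.S1_at, Gma.1463.1.S1_at, GmaAffx.66492.1.A1_at, GmaAffx.25785.1.A1_at and 3 of LOC547851.

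**Figure D4:**
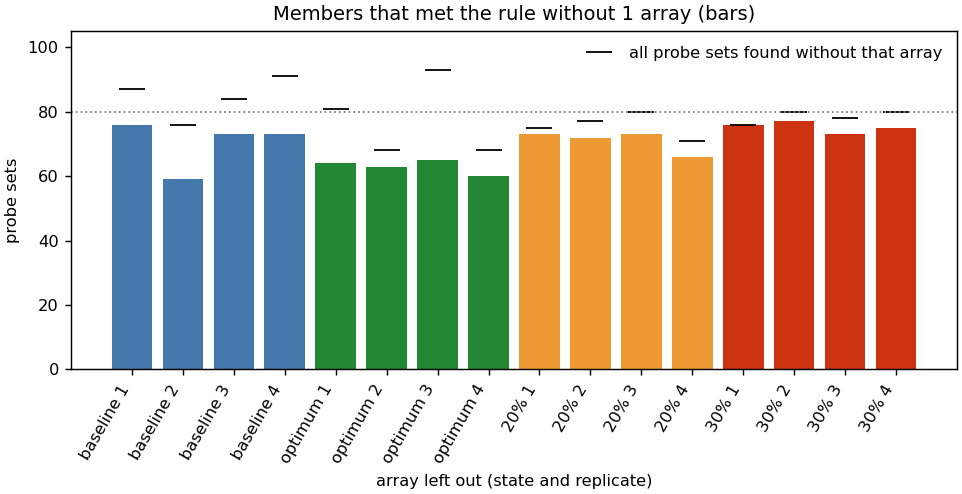
Bars give how many of the 80 members still met the rule when 1 array was left out, coloured by the state of that array; black dashes give all probe sets found in that repeat and the dotted line marks 80. Bars run from 59 without baseline replicate 2 to 77 without 30% inhibition replicate 2.

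Levelling off was 1 of several courses after a rise at the optimum. In the same annotation class 256 probe sets were higher by at least 1.5 at the optimum and reached a state mean of 8. Of these 80, or 31.2%, are the members, 109 (42.6%) went on to stand over 0.5 above the optimum in both inhibited states, 32 (12.5%) dropped over 0.5 below it in both, and 35 (13.7%) did neither. The median difference at the optimum was 1.74 in the members and 1.96 in those that went higher. The cloud of differences from the optimum was unbroken at the limit, with 19 of the 256 at a larger distance of 0.4 to 0.5 and 12 at 0.5 to 0.6.

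**Figure D5:**
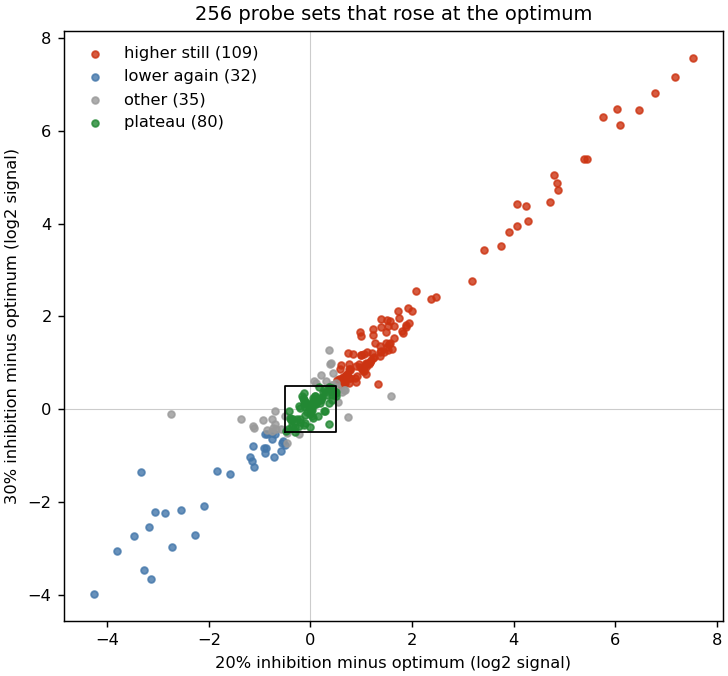
Each point is 1 of the 256 probe sets without a product name that were higher by at least 1.5 at the optimum, placed by its log2 difference from the optimum at 20% (x) and 30% (y) inhibition. The square is the 0.5 limit, with the 80 members in green; 109 lie beyond it above in both states and 32 below in both, and the points run through the limit without a gap.

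Some probe sets with a product name met the limits of this profile. Of 1676 such probe sets 10 met the same limits (0.597%), against 0.225% of the soybean probe sets without a product name, and they belong to 7 genes. The largest differences were those of HSF-26, from 139 ± 46.0 at baseline to 1043 ± 109 at the optimum, and HSF-03, from 349.8 ± 115.6 to 2378 ± 305 (SD, n = 4), which encode heat shock transcription factors and are 2 of 15 such probe sets. HSP90-1, a cytosolic chaperone gene, and BIP4, the HSP70 of the endoplasmic reticulum, met the limits with 2 of 10 HSP90 probe sets and 1 of 10 ER folding probe sets. The others were BZIP105 (2 of 89 bZIP probe sets), the dehydration response gene ERD15 (2 probe sets) and WRKY6 (1 of 103 WRKY probe sets). On BIP4 and the 2 ERD15 probe sets every inhibited array was above every optimum array. BIP4 lay 0.45 above the optimum in each inhibited state. ERD15 lay 0.40 and 0.44 above it on Gma.7482.1.S1_at and 0.36 and 0.25 on GmaAffx.92973.1.S1_s_at. On Gma.17525.2.S1_x_at of HSP90-1 every 20% inhibition array was below every optimum array, at -0.49. In the other probe sets each inhibited state overlapped with the optimum. Of 8 small heat shock protein probe sets 7 were higher by at least 1.5 at the optimum and 0 met the plateau limits, and 0 of 102 MYB, 30 NAC, 12 DREB or ERF and 5 clock probe sets met the limits. All these lists hold product-named probe sets only, so that 0 of 32 listed aquaporin probe sets met the limits while the LOC member for TIP2-3, a water channel too, is not among the 32. Sharing a profile over 4 states says nothing of a shared function with the unnamed members.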

How the data were processed

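Biotin-labelled copies of total RNA (6 µg, from 100 mg of leaf) were hybridized, as the labels' protocols describe. The authors deposited linear signal intensities, which the submitters' processing notes credit to MAS5; its version and settings are not stated in what was used here. Leaving out the top and bottom 2% of values, the mean intensity of every array was 500.0, a common level set before deposit. No detection calls were used here.

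Intensities were taken to log2 and not normalized again. After removal of 135 control probe sets, 30517 with a mean log2 signal above the median of 6.08 were tested across the whole array with limma 3.58.1 in R 4.3.3 (4 state means over 16 arrays, trended prior, Benjamini-Hochberg adjustment, threshold 0.05), a fit first tested on simulated data. Names came from the platform annotation and RefSeq. Named in full were up to 20 LOC members, the 10 unnamed members with the largest difference, the 2 nearest to each limit, and up to 10 product-named probe sets. The members and lists were chosen with earlier results of these data known. Alternatives were quantile normalization, an added constant of 16, a background floor, other filters, array weights, the background as a covariate, the replicate number as a block, other limits, and leaving out each array. No product titles, sequences or coordinates were used here.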

Additional observations from a re-analysis of the deposited data

Results flagged for a closer look

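In each state of the 35 members named in full, the highest or lowest array was set against the other 3. Of 140 groups 8, or 5.71%, held an array far from the rest, about the 5% that chance gives. Of these 8, 4 were baseline groups, and in 3 of the 4 the array was replicate 2 at the low end. GmaAffx.74014.1.S1_at read 19.37 on baseline replicate 2 against 182.1 to 242.7 on the others, GmaAffx.68866.2.S1_at 8.366 against 48.47 to 67.53 (all below background), and Gma.1463.1.S1_at of LOC100810629 911.4 against 1180 to 1239. Gma.11529.1.S1_at read 278 on baseline replicate 4 against 141.9 to 148.3. GmaAffx.45281.1.S1_at read 601.1 on optimum replicate 1 against 831.7 to 880. GmaAffx.90045.1.S1_at of LOC100785506 read 1252 on 20% inhibition replicate 1 against 679.3 to 741.1. On 30% inhibition replicate 4, GmaAffx.49045.1.S1_at read 5275 against 3021 to 3073 and GmaAffx.49045.3.S1_at of LOC100810794 9032 against 5868 to 5988, and these 2 share an ID stem.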

How the results depend on the processing

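The number of members depended mostly on the limits. With a plateau within 0.25 the rule found 37 probe sets and within 1 it found 150, with no minimum level 451, and with a level of at least 10 it found 47. Quantile normalization gave 77 (74 of the 80 members), an added constant of 16 gave 71 (68), and signals below background set at that level gave 72 (70). Leaving out 1 array gave 68 to 93 probe sets. Members called higher at the optimum numbered 75, and 68 to 76 without 1 array, in a contrast that the rule itself used. Of all 30517 probe sets tested, 2023 were called higher at the optimum, and 1411 to 2213 without 1 array. Counted in either direction, leaving out 1 array gave 2732 to 4326 calls at the optimum (3932 with all arrays), 9482 to 10977 at 20% inhibition (10863) and 9096 to 11145 at 30% inhibition (10579). With the array background as a covariate 7070 were called at 20% inhibition; the cause was not tested. The replicate numbers were not treated as pairs, since the labels do not tie them to plants and 7 of 24 same-number correlations of deviations, not all, exceeded 0.1 (range -0.28 to 0.22). That 8 of 16 arrays correlated best with their own number is a hint from the data, not the design, and some shared numbering is not excluded. With the replicate block 3558, 10473 and 10162 probe sets were called in either direction. At the optimum 1830 probe sets, 77 members among them, were then called higher. Leaving out an inhibited array cannot change the optimum difference, so those repeats were fixed in advance. With them counted, there were 665 alternative values for the 35 members named in full. Of these, 4 moved by more than the member's own SD between arrays and 0 changed sign. All 4 were with the background floor, at 2.51 for Gma.13921.1.A1_at, 1.43 for GmaAffx.53960.1.S1_at, 1.42 for GmaAffx.68866.2.S1_at and 1.12 for GmaAffx.70842.1.S1_at, of which the last 3 are short of the 1.5 limit. With that floor Gma.8479.1.S1_at and GmaAffx.8120.1.S1_at, at 1.36 and 1.16, were short of it too, inside their SD. A wide SD hides large shifts, as in GmaAffx.74014.1.S1_at, which went from 2.46 to 1.61 without baseline replicate 2. With 4 arrays per state, a departure from the plateau smaller than about 0.53 was not resolved for the typical member. On at least 1 baseline array, 18 members lay below background.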
